A study of Mus musculus with 4 samples.

Results

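Heat shock and chaperone genes are described here in lung cells of tumour-bearing mice that received radiation or a mock treatment. The members are all genes in the 4 tables whose names start with Hsp, Dnaja, Dnajb or Dnajc, are Bag1 to Bag6, or start with Cct2 to Cct8, leaving out 5 names that mark pseudogenes with "-ps". The rule found 84 of 20640 genes, and each of the 84 had at least 1 transcript count in every library. Chaperones hold unfolded proteins, help them fold and hand damaged ones to degradation. Hsp70 proteins work with J-domain partners (the Dnaj genes) and with nucleotide exchange factors (the Bag and Hsp110 proteins), Hsp90 finishes client proteins, small heat shock proteins hold aggregating proteins, and the CCT ring folds actin and tubulin. Most of these genes are transcribed at all times, while a few, of which Hspa1a and Hspa1b are the textbook case, are switched on by heat shock factor 1 when proteins unfold. Tissue dissociation and cell sorting are known to switch on the same genes, together with immediate early genes such as Fos and Jun.

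Female C57BL/6 mice, 8 weeks old, were given 150000 HKP1 cells, a mouse lung adenocarcinoma line, into the tail vein. They were allotted by bioluminescence on day 6 to 0 Gy (mock) or 4 Gy, delivered on 3 consecutive days, from day 10 to day 12. Each treatment had 4 mice, whose lungs were harvested between 24 and 48 h after radiation ended, and live cells were sorted as CD45-negative or CD45-positive. Every mouse therefore carried tumour cells, and there was no group without them. There were 4 libraries (10x Genomics 3′), 1 for each dose and sort, so the mice of a treatment cannot be told apart and no test between doses is possible. Ratios of 4 Gy over 0 Gy below compare 2 libraries, not 2 treatments. Their 95% intervals (exact, conditional binomial) cover counting error only. Levels are transcript counts (UMIs) scaled to 1000000 UMIs of the same cells (CPM), with exact Poisson 95% intervals where given.

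The 5693 and 4164 CD45-negative cells kept at 0 and 4 Gy, and the 5180 and 9000 CD45-positive ones, were gated on marker genes fixed without any member. Gates took in 96.7% and 97.2% of the CD45-negative and 89.7% and 89.0% of the CD45-positive cells. Endothelial-like cells other than aerocytes made up 83.2% and 84.8% of the CD45-negative cells, with all 8 endothelial markers detected. Cells with tumour epithelial markers numbered 101 and 38, too few at 4 Gy for a comparison. The libraries of the CD45-negative sort held 14885765 and 12448164 UMIs and those of the CD45-positive sort 24045901 and 36423571. A gated type was compared where both libraries held at least 50 cells, which left 9 types. Pairs of libraries shared 3 to 17 barcode sequences, at most 0.394% of the smaller library. The 84 members held 0.655% and 0.658% of all CD45-negative UMIs and 0.547% and 0.546% of all CD45-positive UMIs at 0 and 4 Gy.

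The results turn on Hspa1a and Hspa1b, which encode the stress-inducible cytosolic Hsp70. They lie side by side on mouse chromosome 17 (GRCm38.p6, which is mm10), Hspa1b at 34956429 to 34959238 and Hspa1a at 34969359 to 34972156, both on the minus strand and both with 1 exon. The 250 bases before each start site are shown, from RefSeq's annotation of GRCm38.p6, because the pair is nearly the same there and both hold a match to the heat shock element. Capitals mark GAANNTTC, 2 inverted units of that element. The windows are chr17:34972157-34972406 for Hspa1a and chr17:34959239-34959488 for Hspa1b, on the minus strand, and the window of Hspb1, the small heat shock protein described further on, is chr5:135887669-135887918 on the plus strand.
Hspa1a: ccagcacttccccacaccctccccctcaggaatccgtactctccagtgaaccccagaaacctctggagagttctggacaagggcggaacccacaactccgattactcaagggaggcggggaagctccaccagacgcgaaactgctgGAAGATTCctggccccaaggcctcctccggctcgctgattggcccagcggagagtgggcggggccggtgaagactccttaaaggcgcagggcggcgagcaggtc
Hspa1b: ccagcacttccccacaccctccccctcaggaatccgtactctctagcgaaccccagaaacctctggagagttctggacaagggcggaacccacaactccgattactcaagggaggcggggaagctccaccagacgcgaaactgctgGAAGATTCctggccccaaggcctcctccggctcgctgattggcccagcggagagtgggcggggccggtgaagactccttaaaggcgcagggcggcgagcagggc
Hspb1: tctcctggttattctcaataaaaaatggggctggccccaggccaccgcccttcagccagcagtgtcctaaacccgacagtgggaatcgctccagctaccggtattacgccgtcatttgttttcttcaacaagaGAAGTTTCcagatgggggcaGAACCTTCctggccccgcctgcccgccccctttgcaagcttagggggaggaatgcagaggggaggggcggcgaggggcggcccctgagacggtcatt
Hspa1a and Hspa1b share an unbroken run of 201 identical bases in these windows, and the match starts 104 bases before the start site in both. In Hspb1 the matches start 117 and 97 bases before it. GAANNTTC and TTCNNGAA, the same units in the other order (each reads the same on both strands), were searched in windows from 250 bases before to 50 after a start. A match stood in a window of 17.0% of 27025 genes, of 18 of the 68 members that have a window (26.5%), and of 8 of the 10 inducible members with one. The 3-unit form, GAANNTTCNNGAA or its reverse complement, stood in 0.662% of all genes and in 4 members: Hsph1, Hspd1, Hspe1 and Dnajb6. A match describes letters in a window and is no evidence of a bound factor.

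Because 3′ counting reads only the end of a transcript, near-identical copies matter. In the last 500 bases of the longest annotated transcript (GENCODE vM21), Hspa1a and Hspa1b shared no 50-base word with any other gene, so the counts of the pair can be told apart there. Of the 83 members in that annotation, 75 shared none. Hspa8, the constitutive Hsp70, shared 40.4% of its words with 10 other genes, and the share for Hspb1 was 16.0%, all with Hsp25-ps1. Words were also shared by Dnajc17 (25.5%), Hspb11 (23.1%), Dnajc2 (13.1%), Hsp90ab1 (7.76%), Cct3 (4.88%) and Dnajc12 (1.77%). Counts of all these members are uncertain in level. Hsp25-ps1, left out by the rule, stood at 80.5 and 70.0 CPM in endothelial-like cells at 0 and 4 Gy.

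Most chaperones stood close to their 0 Gy level at 4 Gy. A gene was called higher or lower where it had at least 10 counts over both libraries and its ratio, with 5 CPM added to both levels, reached 1.5-fold. Over all CD45-negative cells, 3 of 83 members measured were higher and 0 lower, against 2.01% of all genes measured higher and 0.969% lower. In CD45-positive cells 0 of 81 were higher and 2 lower, against 1.21% and 0.273% of all genes. Of the 61 CD45-negative members that reached 20 CPM, the interval of the ratio lay above 1 for 14 and below 1 for 10, and of the 48 CD45-positive ones for 10 and 13. Intervals were not counted over all genes at that level, so these counts have no background and are not a result about the members. The median log2 ratio of the members was 0.03 in the CD45-negative sort and 0.02 in the CD45-positive sort, beside 0.02 and 0.01 for all genes measured.

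Within gated types the members called were again few in the well-filled types. In endothelial-like cells 2 of 81 members were higher and 0 lower, against 1.89% and 1.03% of all genes. In aerocyte-like cells, capillary cells specialised for gas exchange, it was 2 higher and 0 lower of 73, against 7.98% and 3.76%. In B-like cells 0 of 74 were higher and 1 lower (1.71% and 0.35% of all genes), and in T-like cells 0 of 73 and 2 (1.41% and 0.843%). In NK-like cells 1 of 64 was higher and 3 lower (7.29% and 3.07%). The 4 myeloid types had fewer cells than the others at 0 Gy, from 67 to 297, though at 4 Gy neutrophil-like cells (864) did not. A larger share of all genes passed the rule in these 4 types. Neutrophil-like cells had 4 of 63 members higher and 5 lower (8.53% and 7.06% of all genes), and classical monocyte-like cells had 6 of 63 and 2 (9.71% and 4.47%). Nonclassical monocyte-like cells had 4 of 58 higher and 9 lower (9.92% and 12.5%), and interstitial macrophage-like cells 4 of 65 and 7 (11% and 8.2%). The count of members called higher was near or below the background in every type, so it is not a result about the members as a group. The members called lower in B-like and T-like cells, and those called higher in endothelial-like cells, were Hspa1a or Hspa1b.

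**Figure D1:**
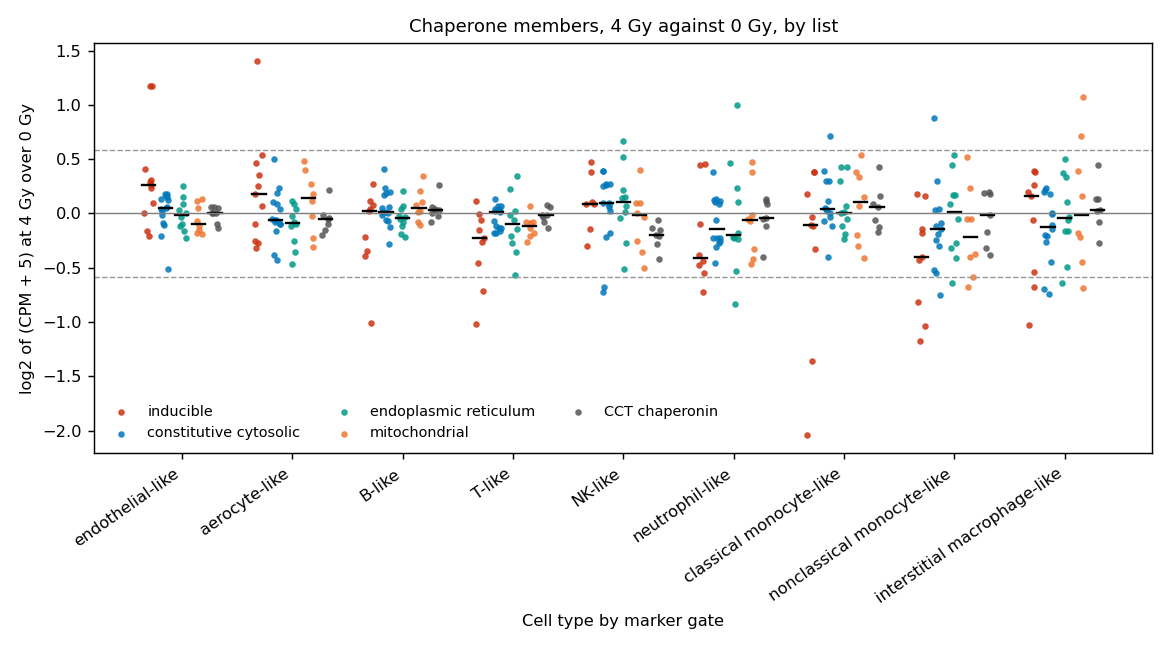
Each point is 1 member in 1 gated cell type, its height the log2 ratio of 4 Gy over 0 Gy with 5 CPM added, its colour the list, black bars the list medians and dashed lines the 1.5-fold rule. CCT members lie close to 0, and the highest endothelial-like points (1.18) and the lowest classical monocyte-like ones (-2.04 and -1.36) are Hspa1a and Hspa1b.

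In endothelial-like cells Hspa1a stood at 4.51 CPM at 0 Gy and 16.5 CPM at 4 Gy, from 42 and 136 UMIs. Hspa1b stood at 4.40 and 16.3 CPM, from 41 and 134 UMIs. The ratios were 3.66 (2.57 to 5.31) for Hspa1a and 3.69 (2.59 to 5.38) for Hspa1b, and both intervals exclude 1. A single cell carried much of the difference. It held 112 of the 270 Hspa1a and Hspa1b UMIs at 4 Gy, or 41.5%. That cell had 1276 UMIs in all, and 3 of the 8 endothelial markers with 1 UMI each (Pecam1, Cldn5 and Egfl7), the least the gate takes. It also held 11 UMIs of Hspb1, 5 of Hsph1, 4 of Dnajb1 and 3 of Dnajb4. Without the cell with most UMIs of each library, the ratio of the pair summed was 2.32 (1.76 to 3.09) in place of 3.68 (2.87 to 4.76). The log2 ratio with 5 CPM added was then 0.63 for Hspa1a and 0.75 for Hspa1b, in place of 1.18 for both. With 20 CPM added it was 0.57 for both, just under the 1.5-fold rule.

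The difference was also seen in the number of cells. A UMI of either gene was found in 69 of 4734 endothelial-like cells at 0 Gy (1.46%, exact 95% interval 1.14% to 1.84%) and in 114 of 3531 at 4 Gy (3.23%, 2.67% to 3.87%). The 4 Gy cells were slightly deeper, with a median of 1971 UMIs against 1799.5. After each cell was thinned to 1000 UMIs, leaving out 431 and 170 shallower cells, the shares were 0.535% and 1.34%. NK-like cells, in which Hspa1a had 0 UMIs in both libraries, gave a share for the pair of 0.504% at 0 Gy and 0.121% at 4 Gy before thinning. After thinning it was 0.514% and 0%. Endothelial-like cells with 3 or more UMIs of the pair numbered 3 of 4734 and 12 of 3531.

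Endothelial-like cells fell into 6 clusters of at least 50 cells in both libraries, built without any member, and different clusters held most cells at the 2 doses: cluster 2 held 471 cells at 0 Gy and 2240 at 4 Gy, and cluster 0 held 1585 and 381. The summed pair was higher at 4 Gy in each of the 6. The ratio was 1.90 in cluster 0 (0.797 to 4.20), 3.06 in cluster 1 (1.71 to 5.52), 2.56 in cluster 2 (1.13 to 7.17), 4.72 in cluster 3 (0.773 to 49.6) and 2.28 in cluster 4 (1.08 to 4.81). Cluster 7 held the single high cell, with 3 UMIs of the pair at 0 Gy and 116 at 4 Gy, 4 of them without that cell. The direction was thus seen within clusters, with intervals that exclude 1 in clusters 1, 2 and 4.

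Aerocyte-like cells gave the same direction from very few UMIs. Hspa1b had 0 UMIs at 0 Gy and 11 at 4 Gy (8.20 CPM). With a floor of 3 counts for the whole gate in place of the 0, the ratio was 4.26. This value leaves out counting error in the 11 UMIs. Hspa1a had 4 and 8 UMIs, a ratio of 2.32 with an interval from 0.622 to 10.5. Cells with a UMI of either numbered 2 of 460 and 16 of 337.

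In leukocytes the pair stood lower at 4 Gy. Classical monocyte-like cells, recruited from blood, had the highest 0 Gy level of the 9 types, 57.5 CPM of Hspa1a and 89.6 CPM of Hspa1b, and 19.4 and 18.1 CPM at 4 Gy. Their ratios were 0.337 (0.206 to 0.541) and 0.201 (0.125 to 0.315). In nonclassical monocyte-like cells, which patrol vessel walls, Hspa1a stood at 52.3 and 20.3 CPM and Hspa1b at 84.96 and 38.9 CPM, ratios of 0.388 (0.177 to 0.808) and 0.458 (0.261 to 0.787). In interstitial macrophage-like cells Hspa1a stood at 20.4 and 7.43 CPM (0.365, 0.141 to 0.921) and Hspa1b at 25.5 and 14.1 CPM (0.554, 0.267 to 1.17). The Hspa1a UMIs there, 12 and 10, came from 6 and 4 cells. Without the top cell of each library its ratio was 0.328 with an interval that includes 1 (0.0939 to 1.08). At 0 Gy the 3 mononuclear phagocyte types thus had the highest levels of both genes among the 9 types. Both monocyte types, whose 0 Gy intervals overlap, stood above the macrophage type for Hspa1b. For Hspa1a the macrophage level rested on 12 UMIs, beside 8 UMIs (9.75 CPM) in neutrophil-like cells. Gates too small to compare, given further on, are not in this ranking, and some had higher Hspa1b levels.

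Lymphocytes had lower levels and the same direction. T-like cells had 5.47 and 1.37 CPM of Hspa1a (0.251, 0.113 to 0.517) and 13.9 and 4.36 CPM of Hspa1b (0.313, 0.203 to 0.473). B-like cells had 3.41 and 1.41 CPM of Hspa1a (0.413, 0.194 to 0.839), which the 1.5-fold rule with 5 CPM added does not call, and 8.72 and 1.84 CPM of Hspa1b (0.211, 0.116 to 0.365). In neutrophil-like cells the pair stood at 18.3 and 13.5 CPM, and the ratio of 0.740 (0.386 to 1.48) did not differ from 1 beyond counting error. NK-like cells held 2 UMIs of the pair in each library, all of Hspa1b, which gives no direction. The interval of the summed pair lay below 1 in 5 of the 7 leukocyte types. Hspa1b in interstitial macrophage-like cells depended on the gate, with a log2 ratio of -0.67 that was -0.01 with the stricter gate and 0.16 with 2 times the markers of the next class.

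B-like, T-like and neutrophil-like cells each fell mainly into a pair of clusters, and the larger of them changed with dose. B-like cluster 17 held 1402 and 1435 cells and cluster 19 held 767 and 1797. The summed pair had a ratio of 0.373 (0.181 to 0.720) in cluster 17 and 0.242 (0.115 to 0.485) in cluster 19. T-like cluster 15 held 587 and 848 cells and cluster 18 held 545 and 1250, with ratios of 0.165 (0.0776 to 0.318) and 0.395 (0.234 to 0.659). The pair thus stood lower at 4 Gy within each of these 4 clusters. In neutrophil-like clusters 21 and 22 the ratios were 0.457 (0.0613 to 3.42) and 0.593 (0.281 to 1.31), and both intervals include 1.

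**Figure D2:**
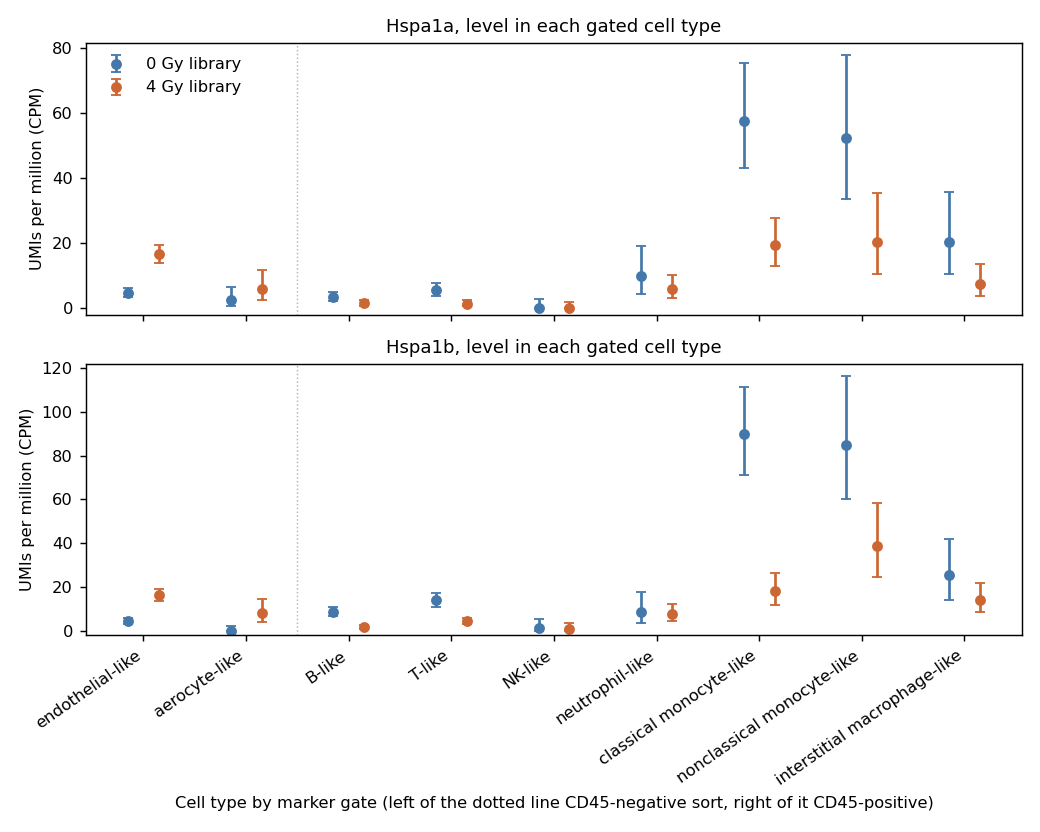
Levels of Hspa1a (top) and Hspa1b (bottom) in CPM for each gated cell type, with 1 point per library (0 Gy blue, 4 Gy orange) and exact Poisson 95% intervals. The 4 Gy points stand above the 0 Gy points in the endothelial-like and aerocyte-like types and below them in B-like, T-like, monocyte-like and macrophage-like cells.

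In the types where the pair stood lower, the share of cells with a UMI was lower too, but not always beyond counting error. A UMI of either gene was found in 44 of 153 classical monocyte-like cells at 0 Gy (28.8%, 21.7% to 36.6%) and in 38 of 284 at 4 Gy (13.4%, 9.65% to 17.9%). In T-like cells it was 54 of 1172 (4.61%) and 36 of 2167 (1.66%). Thinned to 1000 UMIs, the shares were 10.5% and 4.64% in classical monocyte-like cells and 1.55% and 0.466% in T-like cells. For Hspa1a alone the thinned shares in classical monocyte-like cells were 3.92% (1.45% to 8.34%) and 3.21% (1.48% to 6.01%), which do not differ beyond counting error, and its log2 ratio went from -1.36 to -0.49, under the 1.5-fold rule. For Hspa1b they were 7.84% (4.12% to 13.3%) and 1.79% (0.582% to 4.12%). Cells with 3 to 5 UMIs made up 8.50% of the classical monocyte-like cells at 0 Gy and 1.41% at 4 Gy. Without the top cell of each library the ratio of the pair was 0.246 in classical monocyte-like and 0.306 in T-like cells, beside 0.255 and 0.295 with them.

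**Figure D3:**
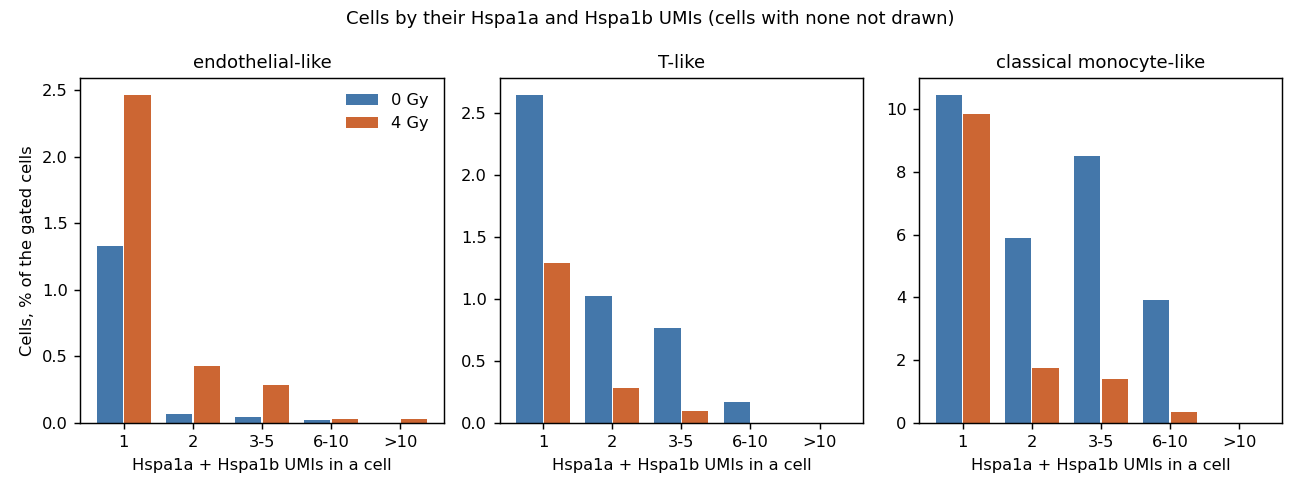
Share of gated cells (%) by their summed Hspa1a and Hspa1b UMIs, for 3 cell types and both libraries, with cells without a UMI not drawn. At 4 Gy more endothelial-like cells (2.46% against 1.33%) and fewer T-like cells (1.29% against 2.65%) held 1 UMI, and 1 endothelial-like cell at 4 Gy held more than 10.

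Other transcripts moved beside the pair. Of the 16 immediate early and dissociation genes, 6 were higher and 0 lower in endothelial-like cells, with a median log2 ratio of 0.49, and 10 of 15 were higher in aerocyte-like cells (0.62). Egr1 stood at 12.9 and 37.4 CPM and Junb at 99.7 and 193 CPM in endothelial-like cells. In leukocytes it went up in some types and down in others. In interstitial macrophage-like cells 4 of 16 were higher and 0 lower (median 0.32), and in B-like cells 2 of 16 higher and 0 lower (0.18), although the pair stood lower in both. In T-like cells 3 were higher and 2 lower, and in classical monocyte-like cells 1 and 1. In neutrophil-like cells 1 was higher and 5 lower (-0.51), in nonclassical monocyte-like cells 0 and 3 (-0.20), and in NK-like cells 0 and 2 of 14 (-0.15). The 7 p53 target genes measured in endothelial-like cells were all higher (median log2 ratio 2.65), among them Cdkn1a, the cell cycle inhibitor, at 340.4 and 2264 CPM. Transcripts of other cell types in the endothelial-like gate also differed between libraries. Club cell markers (7 of 8 detected in each) summed to 37.0 and 481 CPM, and platelet and erythroid markers (7 of 7) to 1897 and 946 CPM. In aerocyte-like cells platelet and erythroid markers (5 of 7 detected in each, with Ppbp and Gp9 at 0) summed to 77.6 and 1329 CPM. In nonclassical monocyte-like cells interstitial macrophage markers (7 and 8 of 8 detected) summed to 4975 and 2876 CPM and neutrophil markers (7 and 8 of 8) to 961 and 332 CPM. In classical monocyte-like cells interstitial macrophage markers (8 of 8) summed to 3426 and 2834 CPM. In interstitial macrophage-like cells classical monocyte markers (8 of 8) summed to 1588 and 2713 CPM, and 7 of 10 cycling genes were lower (464 and 161 CPM summed). In T-like cells neutrophil markers (8 of 8) summed to 42.8 and 180.3 CPM, and 6 of 10 cycling genes were lower (395 and 258 CPM summed). In B-like cells platelet and erythroid markers (5 of 7, with Ppbp and Gp9 at 0) summed to 172 and 81.8 CPM. Whether any of these take part in the difference of the pair was not tested. Sample handling and dose cannot be told apart, since each dose had its own library in each sort.

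The 11 inducible members, the pair included, had a median log2 ratio of 0.26 in endothelial-like cells, with 9 of 11 above 0, beside 0.05 for the 15 constitutive cytosolic members and 0.02 for all genes. Without the pair the median was 0.23, with 7 of 9 above 0 and 0 called. In T-like cells it was -0.23 with 8 of 9 below 0, and -0.16 with 6 of 7 below 0 without the pair, beside 0.02 for the constitutive members and -0.01 for all genes. In neutrophil-like cells it was -0.41, and -0.43 without the pair, beside -0.14 for the constitutive list. In nonclassical monocyte-like cells the median of -0.40 became -0.18 without the pair, beside -0.14 for the constitutive list. In classical monocyte-like cells it was -0.11, and -0.03 without the pair, beside 0.04. In aerocyte-like cells the inducible median was 0.18, or 0.07 without the pair, and the constitutive one -0.06. The inducible medians with the pair in B-like, NK-like and interstitial macrophage-like cells were 0.03, 0.08 and 0.17, and the constitutive ones 0.01, 0.10 and -0.12. These lists are small, and their medians describe these libraries only.

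Dnajb1, the J-domain partner of inducible Hsp70, stood at 33.3 and 45.7 CPM in endothelial-like cells, a ratio of 1.37 (1.18 to 1.60). It stood at 50.9 and 41.7 CPM in T-like cells (0.820, 0.696 to 0.966) and at 44.2 and 63.1 CPM in NK-like cells (1.43, 1.04 to 1.99). In B-like cells it stood at 33.3 and 36.4 CPM (1.09, 0.925 to 1.296), in classical monocyte-like cells at 34.3 and 33.4 CPM (0.975, 0.611 to 1.58) and in nonclassical monocyte-like cells at 41.4 and 47.4 CPM (1.15, 0.617 to 2.17), where the pair stood lower. It followed the direction of the pair in endothelial-like and T-like cells but not in these 3 types, and it passed the 1.5-fold rule in none of the 9. Hsph1, the Hsp110 exchange factor, stood at 8.58 and 11.8 CPM in endothelial-like cells (1.37, 1.01 to 1.87) and at 38.6 and 38.5 CPM in T-like cells (0.996, 0.832 to 1.19). Bag3, which couples Hsp70 to small heat shock proteins and autophagy, stood at 40.5 and 50.6 CPM in endothelial-like cells (1.247, 1.08 to 1.44).

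Hsp90aa1, the inducible Hsp90, stood at 69.8 and 84.8 CPM in endothelial-like cells (1.21, 1.09 to 1.35) and at 138 and 168 CPM in B-like cells (1.22, 1.12 to 1.32). Its ratio was above 1 in 8 of the 9 types, up to 1.39 in neutrophil-like cells (1.08 to 1.82), with 0.880 in nonclassical monocyte-like cells (0.665 to 1.17). Dnaja1, a J-domain partner of constitutive Hsp70, was below its 0 Gy level in all 9 types. The levels were 157 and 140 CPM in endothelial-like cells (0.893, 0.826 to 0.965), 136 and 97.9 CPM in T-like cells (0.720, 0.650 to 0.798) and 98.8 and 76.7 CPM in B-like cells (0.776, 0.699 to 0.862). Its lowest ratio, 0.593 (0.471 to 0.749), was in neutrophil-like cells at 150 and 88.8 CPM, the one type in which it passed the 1.5-fold rule. The log2 ratio of -0.72 there was -0.56 thinned to 1000 UMIs and -0.44 with clusters in place of gates, both under the rule.

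Hspb1, the small heat shock protein Hsp27, was found in CD45-negative types and hardly in leukocytes. It stood at 304 and 251 CPM in aerocyte-like and 48.3 and 41.1 CPM in other endothelial-like cells, and at 0 to 6 UMIs in each leukocyte type and library. It stood at 143 and 111 CPM in the few tumour epithelial-like, 176 and 142 CPM in the fibroblast-like and 245 and 361 CPM in the pericyte-like and smooth muscle-like cells. At 4 Gy it was slightly lower in aerocyte-like and other endothelial-like cells, with ratios of 0.826 (0.716 to 0.952) and 0.852 (0.737 to 0.983). Hspb8, its partner with Bag3, had 0 UMIs in 13 of the 14 leukocyte type libraries and stood at 14.5 and 15.8 CPM in endothelial-like cells. Hspa4l, an Hsp110 relative, stood at 24.99 and 30.2 CPM and Dnajb4 at 20.7 CPM in both endothelial-like libraries.

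The constitutive cytosolic members stood near their 0 Gy levels. Hsp90ab1, the constant Hsp90, stood at 861 and 851 CPM in endothelial-like cells (0.988, 0.957 to 1.02) and at 1142 and 1177 CPM in T-like cells (1.03, 0.998 to 1.06). B-like cells had 980 and 1121 CPM (1.14, 1.11 to 1.18), a small difference beyond counting error. Hspa8 was above its 0 Gy level in B-like cells, at 57.9 and 78.7 CPM (1.36, 1.20 to 1.54), and below it in nonclassical monocyte-like cells, at 216 and 146 CPM (0.675, 0.4996 to 0.910). Bag6, which guards tail-anchored and misplaced proteins, was higher by the rule in both monocyte types. It stood at 33.2 and 57.5 CPM in classical (1.73, 1.13 to 2.72) and 39.2 and 76.2 CPM in nonclassical monocyte-like cells (1.94, 1.10 to 3.57). Neither call held throughout: thinned to 1000 UMIs, the log2 ratio went from 0.71 to 0.0023 in classical and from 0.88 to 0.35 in nonclassical monocyte-like cells, and with clusters in place of gates it was 0.18 and 0.56.

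The endoplasmic reticulum members, which fold secreted and membrane proteins, had 0 of 10 called in either direction in endothelial-like, aerocyte-like, B-like, T-like and classical monocyte-like cells. Hspa5, the Hsp70 of this compartment known as BiP, stood at 337 and 311 CPM in endothelial-like cells (0.925, 0.877 to 0.975) and at 204 and 169 CPM in T-like cells (0.827, 0.763 to 0.896). Hsp90b1, its Hsp90, stood at 667 and 596 CPM in endothelial-like cells (0.893, 0.860 to 0.927). Both differed beyond counting error, yet by less than the 1.5-fold rule. Hsp90b1 passed the rule only in nonclassical monocyte-like cells, at 312 and 198 CPM (0.636, 0.494 to 0.817). Dnajc10, a J-domain disulfide reductase, was higher in neutrophil-like cells at 14.6 and 34.3 CPM (2.34, 1.27 to 4.74). The 15 genes of the unfolded protein response had 0 called in endothelial-like, aerocyte-like, B-like, T-like, NK-like and neutrophil-like cells.

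CCT chaperonin members were called in no type, with list medians from -0.19 in NK-like to 0.06 in classical monocyte-like cells. The mitochondrial members had 0 of 8 called in 7 of the 9 types. Hspd1 and Hspe1 form the mitochondrial folding chamber and start head to head from 1 stretch of chromosome 1. Hspd1 stood at 83.2 and 76.4 CPM in endothelial-like and 108 and 102 CPM in T-like cells. Hspe1 stood at 220.2 and 222 CPM in B-like cells (1.01, 0.944 to 1.08), at 282 and 248 CPM in T-like cells (0.879, 0.821 to 0.940) and at 195 and 145 CPM in classical monocyte-like cells (0.745, 0.608 to 0.914). Its level was thus near its 0 Gy value in B-like cells and below it in the other 2 types, by less than the 1.5-fold rule.

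Genes of the chaperone system outside the naming rule were also mostly not called. Of 23 co-chaperones and heat shock factors, 1 was higher and 0 lower in endothelial-like cells and 0 of 21 were called in T-like cells. Hsf1, the factor itself, stood at 37.3 and 44.9 CPM in endothelial-like cells (1.20, 1.04 to 1.40) and at 35.2 and 29.8 CPM in T-like cells (0.845, 0.695 to 1.03). The gene called was Fkbp5, an Hsp90 co-chaperone known as a glucocorticoid target, at 8.58 and 26.3 CPM in endothelial-like cells (3.07, 2.36 to 4.01). Fkbp5 was also higher in B-like cells, at 13.8 and 24.2 CPM (1.75, 1.38 to 2.24), and in neutrophil-like cells, at 26.8 and 56.8 CPM (2.12, 1.34 to 3.50). In classical monocyte-like cells it stood at 18.8 and 46.1 CPM (2.45, 1.43 to 4.45) and in NK-like cells at 53.5 and 84.3 CPM (1.58, 1.18 to 2.12), and in T-like cells it was not called, at 27.7 and 33.5 CPM (1.21, 0.985 to 1.49). In aerocyte-like cells Cryab, a small heat shock protein of the lens and muscle that the rule does not name, stood at 43.0 and 81.2 CPM (1.89, 1.38 to 2.60), and Hsf2 at 50.04 and 21.6 CPM (0.432, 0.272 to 0.669).

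Several members differed between cell types more than between doses. Hspa12b, a distant Hsp70 relative of vessels, stood at 73.8 and 75.6 CPM in endothelial-like and 131 and 106 CPM in aerocyte-like cells, and at 0 UMIs in both libraries of 5 leukocyte types. Hspa12a, its relative, stood at 29.5 and 29.1 CPM in aerocyte-like and 12.8 and 12.5 CPM in other endothelial-like cells. Bag5, an Hsp70 exchange factor, stood at 287 and 306 CPM in aerocyte-like, 150 and 154 CPM in other endothelial-like, and at most 38.4 CPM in leukocyte types. Dnajc15, a J protein of the mitochondrial inner membrane, stood at 272 and 273 CPM in NK-like and 224 and 210 CPM in T-like cells, against 36.4 and 34.1 CPM in B-like cells. Dnajc7, a co-chaperone of Hsp70 and Hsp90, stood at 236 and 238 CPM in B-like cells and at 64.0 to 129 CPM in the other 8 types over both libraries. Dnajc9, a histone chaperone, stood at 140.5 and 119 CPM in B-like and 105 and 88.2 CPM in T-like cells and at 4.36 to 17.0 CPM in the 4 myeloid types. At these low levels it also differed between doses. It was called higher at 4 Gy in 3 of the 4 myeloid types, with a log2 ratio of up to 1.23. Dnajb14, a J protein anchored in the endoplasmic reticulum, stood at 126 and 127 CPM in classical monocyte-like cells and 16.2 and 16.9 CPM in B-like cells.

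**Figure D4:**
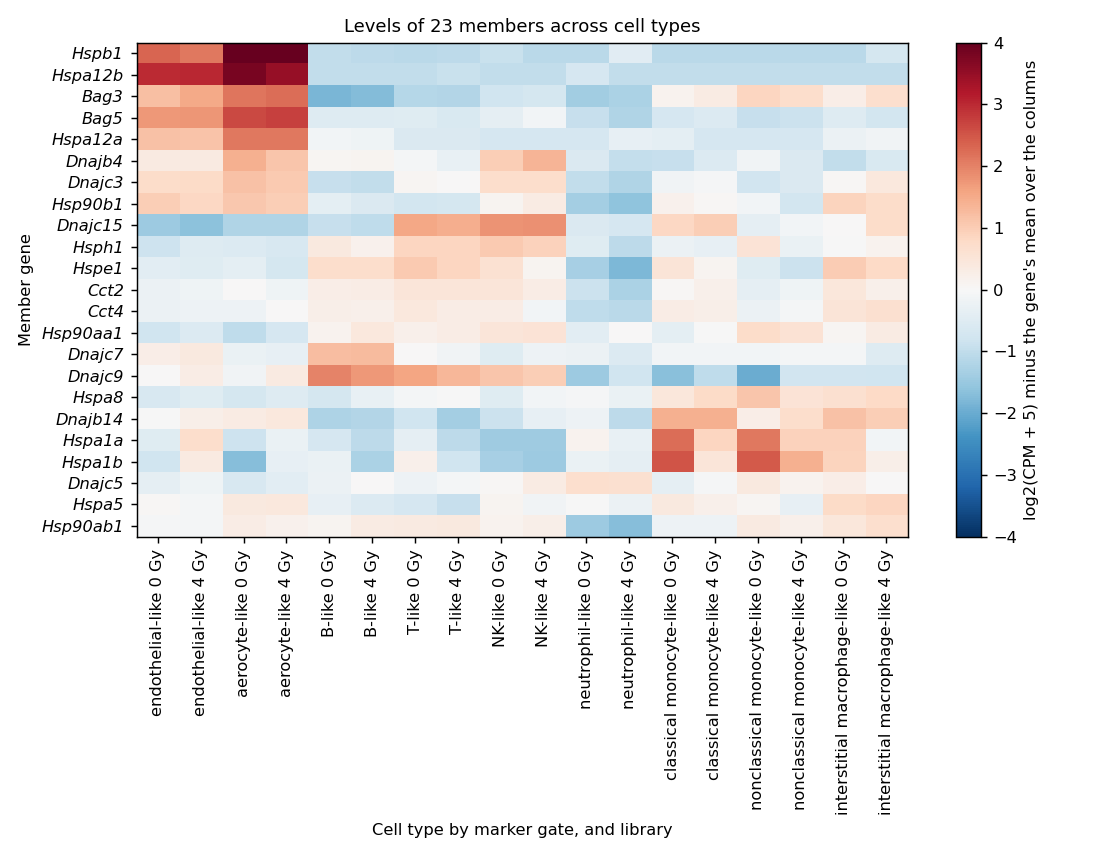
Levels of 23 members in the 9 gated types, 2 columns per type (0 Gy, then 4 Gy), as log2(CPM + 5) minus the gene's mean over the columns, red above and blue below it. Hspb1, Hspa12b and Bag5 are high in both endothelial columns, Dnajc15 in T-like and NK-like and Dnajc9 in B-like cells, and Hspa1a and Hspa1b are highest in the monocyte-like columns at 0 Gy.

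Other members called within a type came from small gates, and many of their intervals include 1. In aerocyte-like cells Dnajc21, a ribosome assembly factor, stood at 18.0 and 32.8 CPM (1.83, 1.11 to 3.05), but its log2 ratio of 0.72 was 0.06 thinned to 1000 UMIs, 0.46 as a mean over cells and 0.58 with doublets kept, under the 1.5-fold rule. In NK-like cells Hspa13 stood at 12.4 and 22.7 CPM (1.83, 1.02 to 3.47) and Hspbp1, an Hsp70 exchange factor, at 23.3 and 12.1 CPM (0.521, 0.291 to 0.922). In neutrophil-like cells Dnajb14 stood at 37.8 and 18.9 CPM (0.502, 0.308 to 0.825). In interstitial macrophage-like cells Dnajc15 stood at 74.8 and 125.6 CPM (1.68, 1.20 to 2.40), and 2 other mitochondrial members went apart, Dnajc30 at 13.6 and 34.2 CPM (2.52, 1.18 to 6.17) and Dnajc19, of the import motor, at 98.5 and 59.5 CPM (0.604, 0.425 to 0.861). Dnajc24, a diphthamide synthesis factor, was called lower in neutrophil-like cells at 19.5 and 9.02 CPM (0.463, 0.228 to 0.955) and higher in classical monocyte-like cells at 12.2 and 25.4 CPM (2.09, 1.05 to 4.53). With clusters in place of gates, the calls of Dnajb14 (log2 -0.49), Dnajc15 (0.13) and Dnajc30 (0.54) were lost, as was that of Dnajc10 in neutrophil-like cells (0.33). Thinned to 1000 UMIs, Dnajc19 stood at -0.44, and as a mean over cells Dnajc24 in classical monocyte-like cells stood at 0.41, both under the rule.

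Gates with under 50 cells are given as levels only. In the 18 and 23 ciliated-like cells Hsp90aa1 stood at 1609 and 1553 CPM, Hspa4l at 710 and 591 CPM, Hspa2, known from sperm, at 710 and 638 CPM, and Hsph1 at 261 and 248 CPM. Dnajb13, an axonemal radial spoke protein, stood at 101 and 162 CPM there. It was the third member called higher over all CD45-negative cells, at 1.65 and 6.51 CPM (3.96, 2.45 to 6.61). It stood at 0.5 and 1.3 CPM in endothelial-like cells, and the ciliated markers summed to 128 and 310 CPM over the whole sort. The part of ciliated cells in its value there was not tested. In the 21 and 11 pericyte-like and smooth muscle-like cells the muscle small heat shock proteins were found, with Hspb6 at 187 and 197 CPM and Hspb7 at 101 and 230 CPM. Hspa1b stood at 144 and 148 CPM there, and at 63.9 and 62.5 CPM in the 46 and 33 fibroblast-like cells. In the 101 and 38 tumour epithelial-like cells Hspd1 stood at 425 and 494 CPM and Hsp90ab1 at 2621 and 3185 CPM, and Hspa1a had 3 and 0 UMIs. Hsp90b1 stood at 2282 and 1284 CPM in 8 and 6 plasma-like cells, which secrete antibody.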

How the data were processed

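Single-cell RNA of sorted lung cells was measured in 4 libraries, 1 for each dose and sort. The deposited values are log2(CPM + 1) per cell, made by the authors. Per the submitters' processing notes, the tools were STAR, Partek and Seurat and the build was mm10, with no role or version stated. The plan assumed counts, so whole UMI counts were recovered from the deposited log2 values, which came out whole within 0.02 for at least 99.9993% of nonzero values. No source used here gives the counting settings. The members and lists were chosen with earlier results of these data known.

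Doublets were removed with Scrublet in Scanpy 1.11.5, taking out 286 (0 Gy) and 149 (4 Gy) CD45-negative and 235 and 608 CD45-positive cells. Its own threshold marked under 0.5% of cells in 3 libraries, so there the highest scores were removed at an expected rate of 0.8% per 1000 cells. Cells were gated with 23 marker lists, needing at least 3 detected markers and a lead of 2 over the next list; an aerocyte is an endothelial-gated cell with at least 3 aerocyte markers. UMIs were summed per gate (Python 3.11.15, NumPy 2.4.6, SciPy 1.17.1, pandas 2.3.3). Clusters used scikit-learn 1.9.0 and leidenalg 0.10.2, and figures matplotlib 3.10.9. No test between doses was made, since a group is 1 library. Members named are those of the lists fixed by function that reached 20 CPM, and the 5 highest and 5 lowest ratios among such members in each comparison; others named were chosen after their values were seen. The fold rule was tested on simulated data, and 10 alternatives were planned. Changes were simulated only in genes of at least 20 CPM, with Poisson counts. They therefore do not cover lower levels, such as those of Hspa1a and Hspa1b in endothelial-like cells. The values of 1 member, which stays in the counts of members, are not reported here.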

Additional observations from a re-analysis of the deposited data

Results flagged for a closer look

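Hspa1a and Hspa1b took opposite directions in endothelial-like cells and in several leukocyte types. Their 4 Gy over 0 Gy ratios were 3.66 and 3.69 in endothelial-like cells. Without the cell with most UMIs of the gene in each library they were 2.20 and 2.575. In leukocytes the ratio of Hspa1a was 0.251 in T-like, 0.337 in classical monocyte-like, 0.388 in nonclassical monocyte-like and 0.365 in interstitial macrophage-like cells. The macrophage value rested on 12 and 10 UMIs, and without the top cell of each library its interval included 1 (0.328, 0.0939 to 1.08). The ratio of Hspa1b was 0.211 in B-like, 0.313 in T-like, 0.201 in classical monocyte-like and 0.458 in nonclassical monocyte-like cells. Dnajc24 had a ratio of 2.09 in classical monocyte-like and 0.463 in neutrophil-like cells, from 11 and 38 and from 16 and 20 UMIs. For Dnajc24 both types came from the CD45-positive libraries. For Hspa1a and Hspa1b the endothelial-like and leukocyte values came from different libraries, since each sort had its own. The difference between the types was not tested, since each group had 1 library.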

How the results depend on the processing

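No paired analysis was possible because each group had 1 library. Directions of Hspa1a and Hspa1b in endothelial-like cells held under all 12 alternatives, with log2 ratios from 0.57 to 1.67 and from 0.57 to 1.83. The median log2 ratio of all genes ran from -0.035 in nonclassical to 0.059 in classical monocyte-like cells, with the other comparisons between. Under another scaling it stayed within 0.1 of its main value in each comparison. The 2 alternatives marked as added were chosen after seeing the data. Hspa1b in interstitial macrophage-like cells turned from a log2 ratio of -0.67 to 0.16 when gates needed 2 times the markers of the next class (added). The cause was not tested for any change below. Counts are of members called, so low-level members move most of them. The share of all genes called is given for the main setting only. The counts below therefore have no background beside them and are not a result about the members as a group.

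With a pseudocount of 1 CPM, members lower numbered 1 in all CD45-negative, 2 in endothelial-like, 2 in aerocyte-like, 2 in B-like and 8 in neutrophil-like cells, and members higher 5 in aerocyte-like, 1 in all CD45-positive, 3 in B-like, 1 in T-like, 5 in NK-like and 7 in nonclassical monocyte-like cells. With 20 CPM, members higher numbered 0 in all CD45-negative, endothelial-like, aerocyte-like and NK-like cells, 1 in neutrophil-like, and 2 in classical monocyte-like, nonclassical monocyte-like and interstitial macrophage-like cells; members lower numbered 1 in all CD45-positive, 0 in B-like, T-like, NK-like and interstitial macrophage-like, 1 in neutrophil-like and 3 in nonclassical monocyte-like cells. With at least 50 counts, members higher numbered 1 in aerocyte-like, 2 in neutrophil-like, 2 in classical monocyte-like, 1 in nonclassical monocyte-like and 2 in interstitial macrophage-like cells, and members lower 1 in T-like, 1 in NK-like, 2 in neutrophil-like, 4 in nonclassical monocyte-like and 1 in interstitial macrophage-like cells. With at least 1 count, 1 was lower in aerocyte-like and 8 higher in nonclassical monocyte-like cells. With doublets kept, the constitutive median in aerocyte-like cells was -0.12, 2 were lower in B-like and 3 in neutrophil-like cells, and 3 higher in NK-like cells. As a mean over cells, members higher numbered 5 in aerocyte-like, 3 in NK-like, 8 in neutrophil-like, 8 in nonclassical monocyte-like and 12 in interstitial macrophage-like cells, and members lower 2 in aerocyte-like, 1 in all CD45-positive and 16 in nonclassical monocyte-like cells. Thinned to 1000 UMIs, members lower numbered 5 in aerocyte-like, 1 in all CD45-positive, 6 in NK-like and 4 in classical monocyte-like cells, and members higher 3 in B-like, 3 in T-like, 3 in NK-like, 9 in neutrophil-like, 8 in nonclassical monocyte-like and 9 in interstitial macrophage-like cells; the constitutive median was -0.18 in aerocyte-like and 0.46 in interstitial macrophage-like cells, and the inducible median 0.98 in the latter. With clusters in place of gates, members lower numbered 2 in aerocyte-like, 3 in neutrophil-like and 3 in interstitial macrophage-like cells, and members higher 2 in neutrophil-like and 1 in nonclassical monocyte-like cells. With 2 times the markers (added), 1 was lower in aerocyte-like, 14 lower in nonclassical monocyte-like and 2 higher in NK-like cells. Without the cell with most UMIs of each gene (added), members higher numbered 1 in all CD45-negative, 3 in NK-like, 7 in nonclassical monocyte-like and 8 in interstitial macrophage-like cells, and members lower 1 in aerocyte-like and 3 in interstitial macrophage-like cells.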
